A study of Homo sapiens with 9 samples.

Results

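The 38 HOX genes described here lie in 4 clusters, HOXA on chromosome 7 (10 genes), HOXB on chromosome 17 (10 genes), HOXC on chromosome 12 (9 genes) and HOXD on chromosome 2 (9 genes), out of 19821 protein-coding genes in the annotation. The assay was ATAC-seq, which marks open chromatin by the insertion of adapters with a transposase, and the cells were HepG2, an established human liver cancer cell line. All cells were transfected for 72 h with siRNA at 50 nM: the non-targeting control NTG, or siINO80#1 or siINO80#2, which target INO80, the catalytic ATPase of the INO80 chromatin remodeling complex. Although 3 replicates made up each group, they were represented by 1 common peak list. There was thus no replicate spread against which the lists could be tested, and no p-value is given. The members were followed through every peak that overlapped a gene body or the 5 kb on either side of it. These windows held 45 peaks, 19 of NTG, 14 of siINO80#1 and 12 of siINO80#2, which merged into 21 regions out of 111260 regions in the genome.

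HOX genes encode homeodomain transcription factors that specify position along the body axis. Their order on the chromosome follows the order in which they act, from the low-numbered genes of the head and neck to the high-numbered genes of the trunk end and limbs, and genes with the same number in different clusters (a paralogue group) descend from one ancestral gene. In cells that do not use them, the clusters are classic targets of Polycomb group proteins, and their start sites are often rich in CpG dinucleotides. The liver derives from endoderm of the foregut. The question addressed was which clusters, and which positions in them, were open in HepG2 and whether these positions were shared among the lists.

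The peak lists held 69730 intervals for NTG, 69333 for siINO80#1 and 53113 for siINO80#2. Fold enrichment is the number of reads at the summit of a peak over its local background in the same list, with 1 added to both, and its percentile gives the rank of a peak within its own list from weakest (0) to strongest (100). The lists differed in depth: by the reads recovered from the deposited values, siINO80#1 held 1.43 times and siINO80#2 1.44 times the reads of NTG. Of 10 liver marker genes, 8 had a peak within 1 kb of a start in NTG, 8 in siINO80#1 and 7 in siINO80#2, and the fetal liver gene AFP and the fibrinogen gene FGB had none. Of 10 markers of other cell types, NEUROG2 and COL1A2 had one in all 3 lists and the other 8 had none. Among all protein-coding genes, the share with such a peak was 58.8% in NTG, 58.6% in siINO80#1 and 52% in siINO80#2.

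The 4 clusters differed in where peaks were called. HOXA held 12 regions, HOXD 7, HOXB 2 and HOXC none. Keeping peaks whose −log10 q reached 5 left HOXA 5, HOXD 4 and the others 0. Per 100 kb of window the full lists gave 10.9 regions in HOXA, 6.82 in HOXD, 1.55 in HOXB and 0 in HOXC, whereas the whole genome held 3.59 regions per 100 kb. The surroundings varied less. Within 1 Mb on either side of each cluster there were 3.05 regions per 100 kb at HOXA, 7.70 at HOXD, 3.50 at HOXB and 4.25 at HOXC. Chromosome 2 as a whole held 8.86 regions per 100 kb, so HOXD lay near the level of its chromosome, while chromosome 7 held 2.84 and HOXA stood above it. The genome and chromosome values count all sequence, also that far from genes. The windows hold only gene bodies and 5 kb on either side, so these densities have unlike bases.

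**Figure D1:**
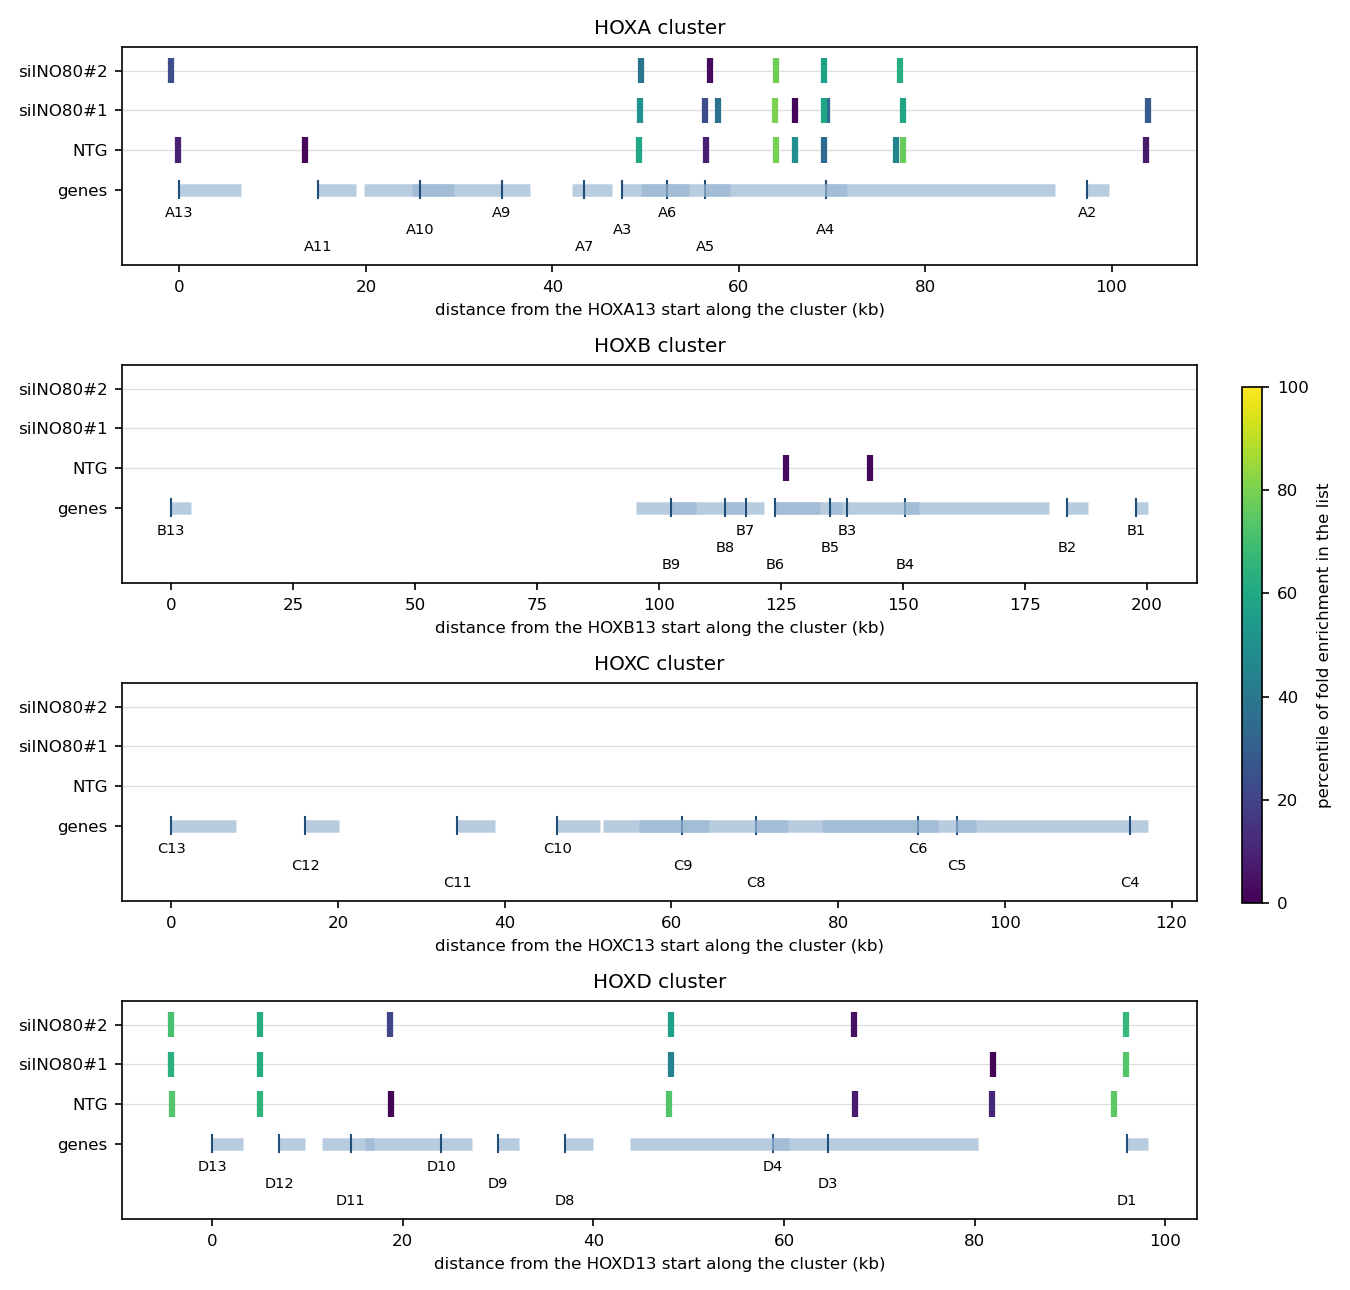
Maps of the 4 HOX clusters. The x axis is the distance in kb from the start of the highest-numbered gene of each cluster, pale bars are gene bodies with a dark tick at the canonical start, and each vertical mark in the 3 upper rows is the strongest summit of a peak, coloured by the percentile of its fold enrichment in its list. Peaks lie mainly from the HOXA3 body to HOXA6 and across HOXD, HOXB has 2 weak peaks in NTG alone, and HOXC has none.

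Base composition differed between the open positions, so the sequences of 5 windows are shown on the plus strand of GRCh37, unless stated otherwise, with every CpG in capitals. The first surrounds the summit that ranked highest among all lists in HOXD (chr2:177051950-177052149, upstream of HOXD1) and held 2 CpGs in 200 bases.
HOXD strongest summit: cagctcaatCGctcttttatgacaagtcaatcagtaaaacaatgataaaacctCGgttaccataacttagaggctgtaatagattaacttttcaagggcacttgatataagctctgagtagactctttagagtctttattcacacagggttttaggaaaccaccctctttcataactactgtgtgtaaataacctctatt
The next pair, of 200 bases with 24 and 18 CpGs, was overlapped by a peak of each list. Its first window, labelled HOXA4 start, lay just upstream of that start (chr7:27170492-27170691), and its second lay upstream of HOXD13 (chr2:176953099-176953298).
HOXA4 start: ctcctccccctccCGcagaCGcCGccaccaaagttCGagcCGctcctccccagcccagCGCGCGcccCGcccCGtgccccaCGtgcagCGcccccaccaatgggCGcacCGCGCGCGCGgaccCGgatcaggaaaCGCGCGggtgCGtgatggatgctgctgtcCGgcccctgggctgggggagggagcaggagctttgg
upstream of HOXD13: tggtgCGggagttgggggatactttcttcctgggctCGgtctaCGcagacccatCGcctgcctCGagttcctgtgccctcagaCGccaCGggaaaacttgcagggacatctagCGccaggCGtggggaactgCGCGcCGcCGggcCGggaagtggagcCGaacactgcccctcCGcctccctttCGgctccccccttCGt
The last pair gives the 150 bases before the canonical start of HOXD1, which lay inside a peak in all 3 lists (chr2:177053246-177053395, 18 CpGs), and of HOXA10, which had no peak in any list (chr7:27213940-27214089, minus strand, 19 CpGs), each in the direction of transcription.
HOXD1 upstream: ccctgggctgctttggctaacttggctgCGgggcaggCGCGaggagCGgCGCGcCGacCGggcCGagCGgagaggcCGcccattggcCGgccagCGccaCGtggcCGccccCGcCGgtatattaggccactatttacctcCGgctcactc
HOXA10 upstream: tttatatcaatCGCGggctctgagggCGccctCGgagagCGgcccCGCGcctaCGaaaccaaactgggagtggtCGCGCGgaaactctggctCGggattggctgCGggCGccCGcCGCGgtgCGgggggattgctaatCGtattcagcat

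CpG content was high over the HOX regions as a group. The median ratio of observed to expected CpGs in the 200 bp around the summit was 0.733 over the 21 HOX regions and 0.196 over all regions, and the median GC content was 62.0% and 46.5%. Among the exceptions were the peak at chr7:27173567-27173752, between HOXA4 and HOXA5, with a ratio of 0.303, the summit shown upstream of HOXD1, with 0.315, and the NTG peak of low rank near HOXA11, with 0.115. A CpG-rich start did not go with a peak in every member, as the last pair of sequences shows, and 26 of the 38 members had a CpG-rich start (GC of at least 55% and a ratio of at least 0.65 within 500 bp on either side).

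A peak at a start site was uncommon among the members. In NTG, 4 of 38 members had a summit within 1 kb of an annotated protein-coding start (10.5%, 95% Wilson interval 4.17 to 24.1), against 58.8% of all protein-coding genes. In siINO80#1 it was 3 of 38 (7.89%, 2.72 to 20.8), against 58.6%, and in siINO80#2 it was 5 of 38 (13.2%, 5.75 to 27.3), against 52%. These intervals cover counting error only and treat neighbouring genes as independent, which they are not. The shares were also below those of genes of like composition. Of the 26 members with a CpG-rich start, 4 had a start peak in NTG, 3 in siINO80#1 and 5 in siINO80#2 (15.4%, 11.5% and 19.2%), whereas among all protein-coding genes with such a start the shares were 76.5%, 76.8% and 68.2%.

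Counted over the whole window, 17 members had a peak in NTG, 10 in siINO80#1 and 12 in siINO80#2, and the shares for all protein-coding genes were 75.7%, 74.7% and 68%. With the 53113 strongest peaks of each list the members numbered 9, 10 and 12, so the order of the lists turned round. No peak of any list fell in the window of 21 members (55.3%, 39.7 to 69.9), against 19.7% of protein-coding genes. These were HOXA9 and HOXA10, 7 HOXB genes, all 9 HOXC genes, and HOXD4, HOXD8 and HOXD9. HOX windows overlap, so that 1 peak can count for up to 3 members.

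**Figure D2:**
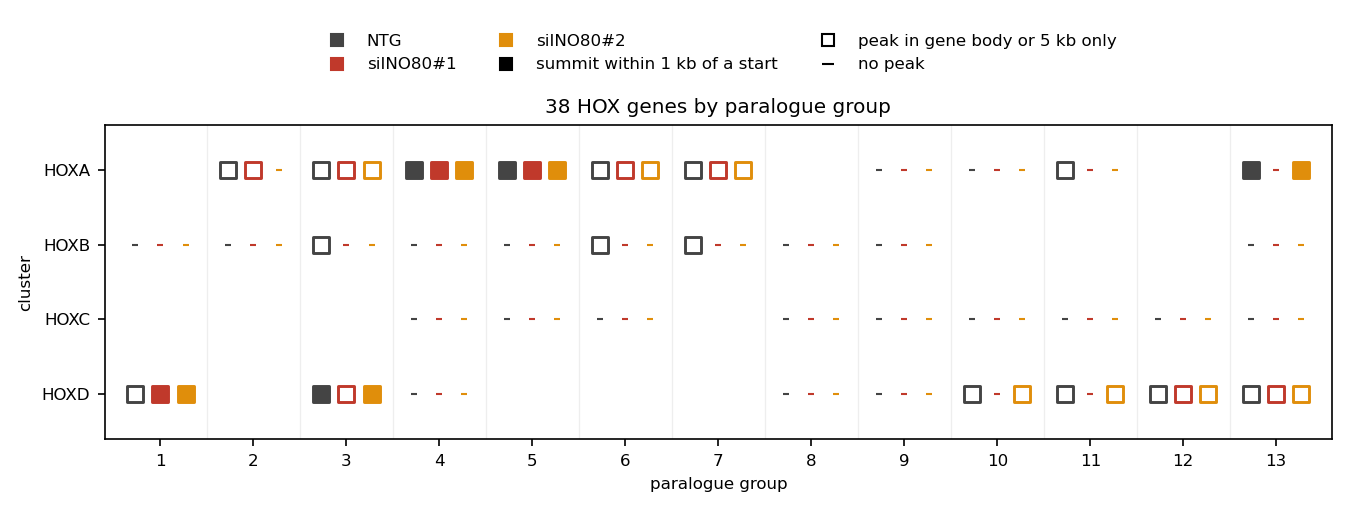
The 38 HOX genes by cluster (rows) and paralogue group (columns). For each gene the 3 marks stand for NTG, siINO80#1 and siINO80#2 from left to right, a filled square is a summit within 1 kb of a start, an open square a peak elsewhere in the gene body or 5 kb around it, and a dash no peak. Filled squares occur in 5 genes, and HOXA4 and HOXA5 are filled in all 3 lists.

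By paralogue group, start peaks occurred in groups 1, 3, 4, 5 and 13. Groups 8 and 9, of 3 and 4 members, which act in the trunk, had no peak in the window of any member in any list. In both HOXA and HOXD the genes of group 9 in the middle of the cluster had no peak, while genes toward each end had them. Group 13 acts at the tail end of the body and in the digits, and its HOXA and HOXD members had peaks nearby in NTG and siINO80#2 (HOXD13 also in siINO80#1), whereas HOXB13 and HOXC13 had none.

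In the HOXA cluster, 5 of 12 regions were found in all 3 lists, and they lay in the stretch from the HOXA3 body to the upstream start of HOXA6. HOXA4 and HOXA5, which pattern the neck and upper trunk (HOXA5 also acts in lung development), were the members with a start peak in every list. The region at the start of HOXA4 (chr7:27170500-27170838) had a fold enrichment of 3.01 in NTG, 3.53 in siINO80#1 and 3.43 in siINO80#2, from 21, 37 and 28 reads at the summit. Its percentile was 34.6 in NTG and 59.0 and 56.8 in the siINO80 lists. The summits fell within 10 bp of each other, 199, 193 and 191 bp upstream of the nearest HOXA4 start. No peak of any list covered a HOXA4 start.

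The region at the start of HOXA5 (chr7:27182761-27183407) was weak in each list. Its fold enrichment was 2.51 in NTG, 2.58 in siINO80#1 and 2.17 in siINO80#2, at percentiles 8.51, 22.7 and 3.12. The summit of siINO80#1 lay 19 bp inside the start, that of NTG 118 bp inside it, and that of siINO80#2 468 bp inside it. The NTG and siINO80#2 summits were in the coding sequence. The peaks of NTG and siINO80#1 covered the start, and that of siINO80#2 did not. The exact 95% Poisson intervals of the reads at these summits overlapped, at 9.90 to 27.2 for 17 reads in NTG, 15.4 to 35.7 for 24 in siINO80#1 and 13.0 to 32.1 for 21 in siINO80#2. They cover counting error only.

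The strongest HOXA region was not at a start. It lay between HOXA4 and HOXA5 in an intron of long HOXA3 transcripts and of the antisense transcript HOXA-AS3. Fold enrichment was 5.27 in NTG, 5.15 in siINO80#1 and 4.69 in siINO80#2, at percentiles 79.0, 80.3 and 77.8. It was the highest-ranked HOX peak of each list, and its 3 ranks lay close together. The reads at the summit numbered 37, 48 and 40.

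HOXA3, a gene of the neck and pharyngeal arches, had the most peaks in its window, 7 in NTG, 8 in siINO80#1 and 5 in siINO80#2, and no summit within 1 kb of a protein-coding start. Its body spans those of its neighbours, so most of these peaks are shared with HOXA4, HOXA5 or HOXA6. One lay at the start of the antisense transcript HOXA-AS2 (chr7:27161778-27162920), 2858 bp upstream of a HOXA3 start in NTG. There the strongest peak had a fold enrichment of 5.04 in NTG, 3.53 in siINO80#1 and 3.69 in siINO80#2, at percentiles 76.9, 58.9 and 63.1, so it ranked higher in NTG than in either siINO80 list. NTG had a further peak within the same merged region, at percentile 44.9.

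The last shared HOXA region (chr7:27189939-27190681) covered the start of an upstream HOXA6 transcript that is not annotated as protein-coding and an exon of HOXA-AS3. Fold enrichment was 3.78 in NTG, 3.16 in siINO80#1 and 2.85 in siINO80#2, at percentiles 59.9, 50.1 and 38.3. It was the only region in the window of HOXA7, and neither HOXA6 nor HOXA7, both trunk genes, had a summit within 1 kb of a protein-coding start.

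The other 7 HOXA regions were found in 1 or 2 lists and lay below percentile 50 of their lists. At the start of HOTAIRM1, a noncoding transcript beside HOXA2, a peak was called in NTG at percentile 6.83 and in siINO80#1 at 28.2, and this was the only region in the window of HOXA2, a gene of the hindbrain and the second pharyngeal arch. Between HOXA4 and HOXA5 a further peak (chr7:27173567-27173752) stood at percentile 49.5 in NTG and 0.902 in siINO80#1. siINO80#1 alone had a peak in the HOXA4 coding sequence at 35.5 and one in the HOXA5 intron at 37.0.

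HOXA13, needed for digits and the genital tract, had its start peak in 2 lists but not at the same position. The NTG peak (chr7:27239857-27240223, percentile 9.19, 18 reads) had its summit 200 bp upstream of the start. The siINO80#2 peak (chr7:27240437-27240695, percentile 23.7, 21 reads) had its summit 884 bp upstream, in an exon of the noncoding transcript HOTTIP, and did not overlap the NTG peak. siINO80#1 had no peak nearer than 49431 bp. The NTG peak near HOXA11, a gene of the forearm and uterus, stood at percentile 1.66 and lay 1418 bp upstream of its start. Between this peak and the HOXA6 region no list had a peak over 35.4 kb, which holds HOXA7, HOXA9, HOXA10 and HOXA11.

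In the HOXD cluster, 4 of 7 regions were found in all 3 lists and the other 3 in NTG and 1 siINO80 list. The shared regions lay before HOXD13, before HOXD12, in HOXD3 and at HOXD1. Upstream of HOXD13, the digit gene, a region (chr2:176952802-176953433) had fold enrichments of 4.72 in NTG, 3.76 in siINO80#1 and 4.12 in siINO80#2, at percentiles 73.2, 63.8 and 70.7, with 50, 50 and 57 reads. Its summits lay 4250, 4254 and 4279 bp before the HOXD13 start, in sequence with no annotated gene. Its CpG-rich sequence is shown above.

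The next region (chr2:176962110-176962577) lay between HOXD13 and HOXD12, a further limb gene, with summits 2060, 2050 and 2056 bp before the HOXD12 start. Fold enrichment was 4.15 in NTG, 3.68 in siINO80#1 and 3.63 in siINO80#2, at percentiles 65.5, 62.0 and 62.3. The positions in the 3 lists thus differed by 10 bp at most, and the ranks lay within a few percentiles. Neither HOXD12 nor HOXD13 had a summit within 1 kb of its start.

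HOXD3, a gene of the neck vertebrae with 4 protein-coding starts spread over a long body, had a shared region in an intron (chr2:177005293-177005990), 3728, 3955 and 3932 bp inside its first start. Fold enrichment was 4.68 in NTG, 2.99 in siINO80#1 and 3.41 in siINO80#2, at percentiles 72.9, 44.5 and 56.5, with 45, 35 and 41 reads. NTG stood highest by both measures. The summit within 1 kb of another HOXD3 start (chr2:177024681-177024946) was called in NTG, 692 bp upstream at percentile 7.39, and in siINO80#2, 805 bp upstream at percentile 4.11, and not in siINO80#1.

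HOXD1, the low-numbered end of the cluster, had the widest HOX region, 1915 bp (chr2:177051716-177053630), which spanned its start and that of the divergent noncoding transcript HAGLR. It was the highest-ranked HOXD peak in NTG and siINO80#1, at percentiles 74.7 and 73.2, while in siINO80#2, at 66.7, it ranked below the region before HOXD13. The peak covered the HOXD1 start in every list, but the place of its strongest summit differed. In NTG it lay 1346 bp upstream, with a fold enrichment of 4.83 and 54 reads, in the CpG-poor sequence shown above. In siINO80#1 it lay 73 bp upstream, with 4.43 and 59 reads, and in siINO80#2 55 bp upstream, with 3.91 and 51 reads. NTG had a further summit 45 bp upstream, with a fold enrichment of 3.80 and 42 reads. Near the NTG summit siINO80#1 had none, and its peak began at chr2:177052381, downstream of the NTG summit. The nearest siINO80#2 summits lay 1143 and 1060 bp upstream, with fold enrichments of 2.64 and 2.65.

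**Figure D3:**
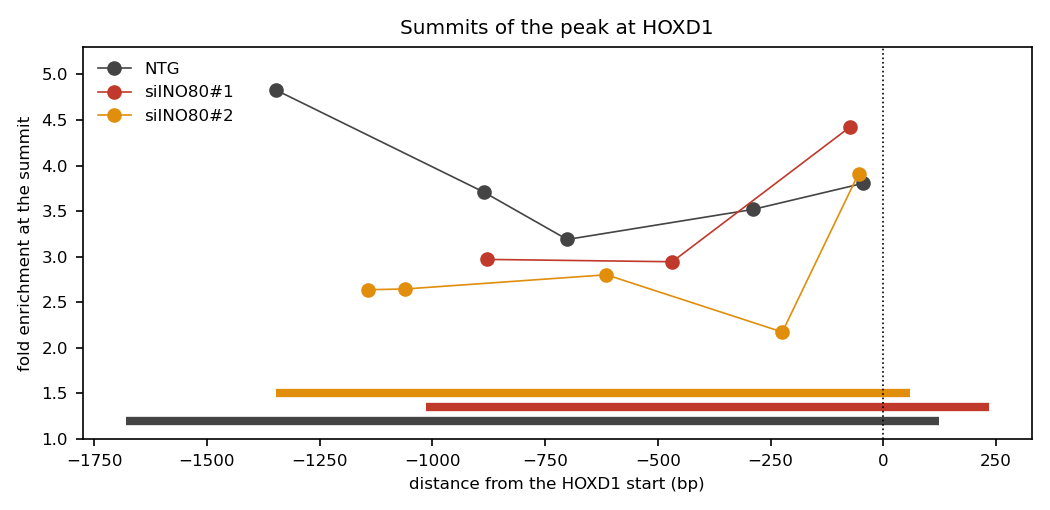
Summits within the peak at HOXD1. The x axis is the distance in bp from the HOXD1 start, the y axis the fold enrichment at each summit of NTG, siINO80#1 and siINO80#2, lines join the summits of 1 list, and bars at the bottom give the extent of the peak. The highest summit is at −1346 bp in NTG and at −73 and −55 bp in the siINO80 lists, where NTG has a lower summit at −45 bp.

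The rule of 1 summit per peak therefore left HOXD1 out of the NTG count of start peaks. With any summit of a peak counted, the members with a start peak numbered 5 in NTG, 3 in siINO80#1 and 5 in siINO80#2. The remaining HOXD regions were weak. A peak in an exon of a long HOXD10 transcript (chr2:176976082-176976357), the only region in the windows of HOXD10 and HOXD11, stood at percentile 1.11 in NTG and 21.1 in siINO80#2, and a peak in a HAGLR exon (chr2:177039135-177039724) at 11.2 in NTG and 1.16 in siINO80#1. HOXD8 and HOXD9 lay in a stretch of 28.9 kb without a peak, and HOXD4 in one of 18.7 kb.

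In the HOXB cluster, both regions were NTG peaks at the bottom of the list. One lay in an intron of HOXB3 (chr17:46662671-46662921, percentile 1.55, 20 reads) and the other in introns of HOXB3, HOXB6 and HOXB-AS3 (chr17:46679934-46680187, percentile 2.38, 18 reads). Their −log10 q values were 1.65 and 1.61, where the lowest value in the list was 1.30. No HOXB member had a start peak in any list, and HOXB5, between these 2 peaks, had none in its window. HOXB1, HOXB2 and HOXB4, the last of which acts in blood stem cells, lay in a stretch of 127.8 kb without a peak of any list. HOXB7, HOXB8 and HOXB9 lay in one of 67.2 kb, and HOXB13, a gene of the prostate and hindgut, in one of 90.0 kb together with PRAC1 and PRAC2.

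In the HOXC cluster, no list had a peak in any window. All 9 HOXC genes, from HOXC4 to HOXC13, lay within 1 stretch of 309.6 kb (chr12:54219581-54529205) between a peak of all 3 lists on the left and a peak of NTG and siINO80#1 on the right. The stretch holds 10 whole protein-coding genes by the annotation, the tenth being a gene model with no symbol that overlaps the HOXC genes. In the genome, 3270 stretches between neighbouring regions held at least 1 whole protein-coding gene, with a median of 1, and 29 of them held 10 or more. Since the lists give only intervals past a threshold, this means that no peak was called, not that no read fell there. HOTAIR and the noncoding transcripts HOXC-AS1, HOXC-AS2 and HOXC-AS3, all in this stretch, had no start peak either.

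To compare the lists, the 21 regions were classed by the lists in which they had a peak. Of these, 9 were found in all 3 lists (42.9%, 24.5 to 63.5), against 26.8% of all regions, a level within the interval. On the same chromosomes the share was 32.7% for chromosome 7 and 17.8% for chromosome 2. Regions of 1 list numbered 4 for NTG, 2 for siINO80#1 and 1 for siINO80#2. NTG shared 3 regions with siINO80#1 and 2 with siINO80#2, and no region was found in both siINO80 lists but not in NTG (0 of 21, upper limit 15.5%), a class that held 5.19% of all regions.

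**Figure D4:**
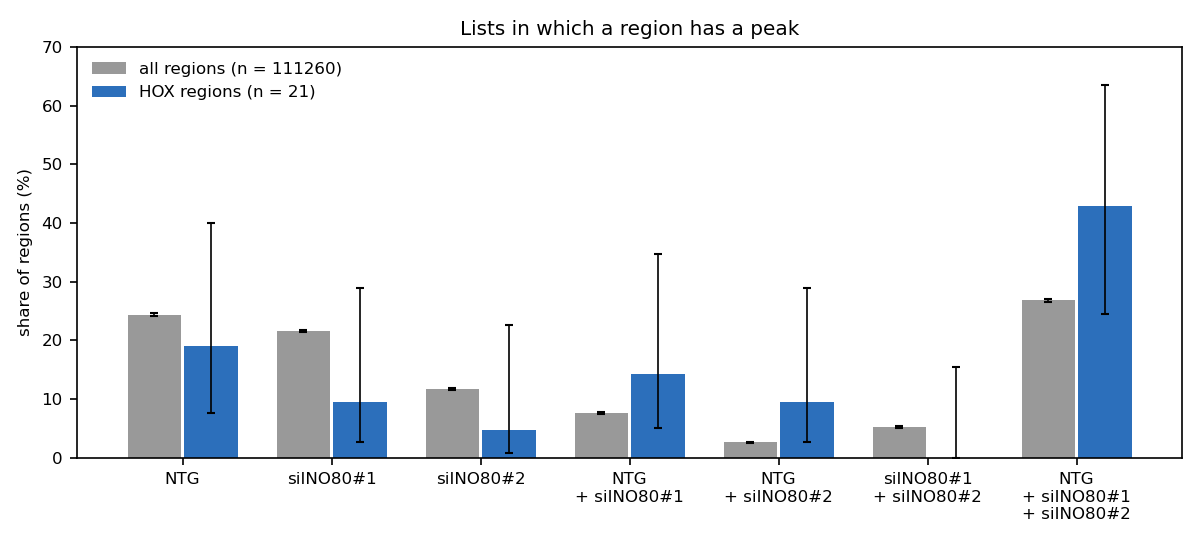
Share of regions in percent (y axis) by the lists in which they have a peak (x axis), for all 111260 regions and the 21 HOX regions. Bars are shares and error bars 95% Wilson intervals, which cover counting error only. Of the HOX regions, 42.9% had a peak in all 3 lists and none in both siINO80 lists but not in NTG.

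A siINO80#1 peak was found at 68.4% (46.0 to 84.6) of the 19 NTG peaks in HOX windows and a siINO80#2 peak at 63.2% (41.0 to 80.9), where all NTG peaks gave 56.5% and 48.0%. Of the 14 siINO80#1 peaks, 85.7% (60.1 to 96.0) overlapped an NTG peak and 64.3% (38.8 to 83.7) a siINO80#2 peak, against 56.6% and 52.2% of all. Of the 12 siINO80#2 peaks, 91.7% (64.6 to 98.5) overlapped an NTG peak and 75.0% (46.8 to 91.1) a siINO80#1 peak, against 63.6% and 69.1% of all. Of these 6 intervals, those for siINO80#1 in NTG and siINO80#2 in NTG lay above the value for all peaks, and the other 4 held it. At equal list size these 2 shares were 72.7% and 66.7%. The shares of all peaks at that size were not computed, so these values have no level to be read against.

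The 6 NTG peaks without a siINO80#1 match ranked between percentiles 1.11 and 9.19, and the 13 with one had a median of 59.9. The 7 NTG peaks without a siINO80#2 match ranked between 1.55 and 49.5. The order of the peak counts also depended on how many ranks were kept. With the 53113 strongest peaks of each list, as many as siINO80#2 holds, NTG had 10 HOX peaks, siINO80#1 11 and siINO80#2 12, and the HOXB peaks were gone. The higher count of NTG in the full lists consisted of low-ranked peaks.

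**Figure D5:**
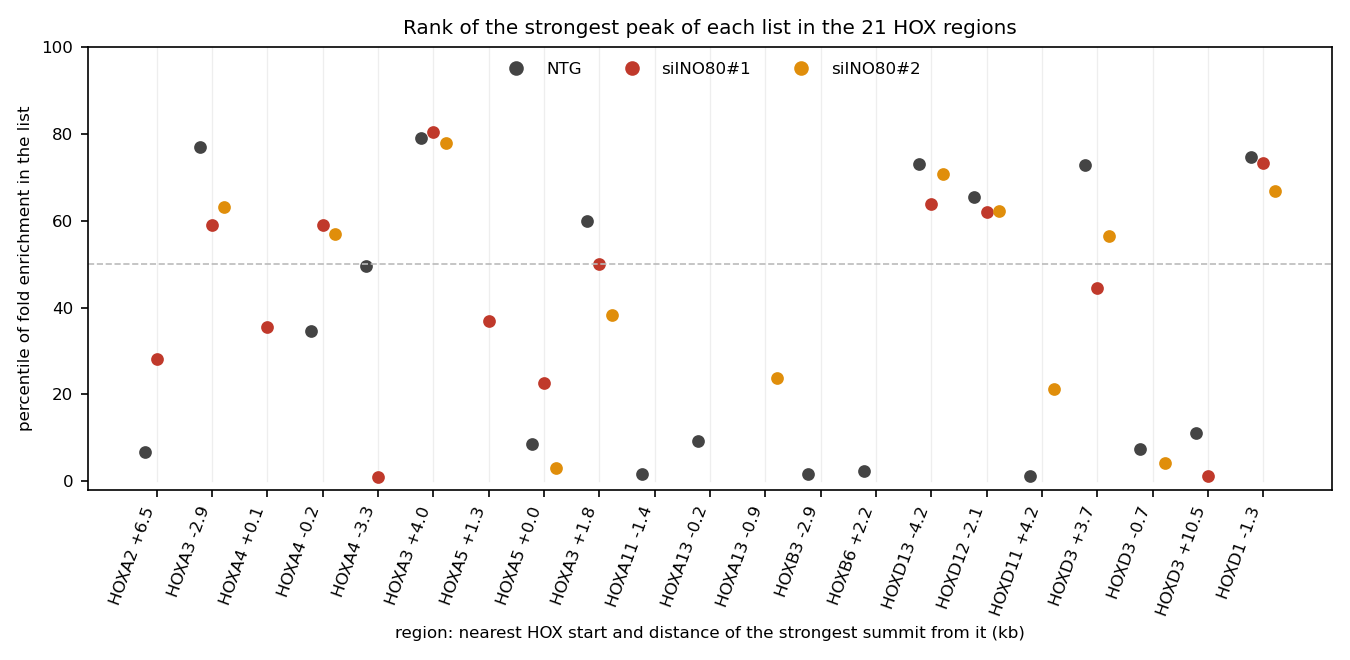
Percentile of fold enrichment within the list (y axis) of the strongest peak of NTG, siINO80#1 and siINO80#2 in each of the 21 HOX regions (x axis), named by the nearest HOX start and the distance in kb of the strongest summit from it, with the dashed line at the middle of each list. Every region above the line is found in all 3 lists, the highest points stand at 79.0, 80.3 and 77.8, and the regions of 1 or 2 lists all lie below it.

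HOX peaks did not reach the top of any list. The highest percentile was 79.0 in NTG, 80.3 in siINO80#1 and 77.8 in siINO80#2, and peaks of the 9 shared regions had medians of 69.2, 59.0 and 62.3, against 75.1, 75.4 and 68.1 for the peaks of all shared regions. Several genes beside the clusters ranked higher. SKAP2, next to HOXA, had a start peak at percentiles 96.7, 95.1 and 93.3, MTX2, beyond HOXD1, at 97.4, 97.2 and 96.8, and CBX5 and HNRNPA1, which share a start region beside HOXC, at 88.5, 93.4 and 92.2. Of 16 flanking genes, 12 had a start peak in NTG and 11 in each siINO80 list. The 4 without one included EVX1 and EVX2, homeobox genes at the ends of HOXA and HOXD. Among all protein-coding genes, 58.8%, 58.6% and 52% had a start peak in NTG, siINO80#1 and siINO80#2.

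Of the 21 HOX regions, 7 had their strongest summit within 1 kb of a protein-coding start (33.3%, 17.2 to 54.6), against 13.0% of all regions. Of the 9 shared HOX regions it was 2, the HOXA4 and HOXA5 starts, against 31.2% of all shared regions, since the HOXD1 region was represented by its NTG summit. Noncoding starts accounted for several others. Of 19 noncoding transcripts and microRNAs inside the clusters that the annotation holds, 6 had a start peak in NTG, 4 in siINO80#1 and 4 in siINO80#2, and HOXA-AS2, HOXA-AS3 and HAGLR had one in all 3 lists.

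Short motifs were searched on both strands in the 200 bp around each strongest summit. The CTCF core AGGNGGCAG was found in 2 of 21 HOX regions and in 3.29% of all regions. CTCF is an insulator protein that bounds chromatin domains within HOX clusters. The 2 windows, with the match in capitals, lay in the HOXA5 intron (chr7:27181857-27182056, a siINO80#1 peak, match on the minus strand) and in the exon of the long HOXD10 transcript (chr2:176976066-176976265, NTG and siINO80#2).
HOXA5 intron: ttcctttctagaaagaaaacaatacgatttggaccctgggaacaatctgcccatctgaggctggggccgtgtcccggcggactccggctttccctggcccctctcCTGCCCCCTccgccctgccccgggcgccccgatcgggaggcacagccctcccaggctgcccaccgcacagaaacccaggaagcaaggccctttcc
HOXD10 exon: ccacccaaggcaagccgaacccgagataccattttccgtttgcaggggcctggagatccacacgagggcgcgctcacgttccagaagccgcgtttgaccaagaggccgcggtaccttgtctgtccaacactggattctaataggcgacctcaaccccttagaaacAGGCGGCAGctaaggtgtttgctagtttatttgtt
The other motifs searched were in none of the 21 windows. These were AP-1 (TGACTCA, in 11.9% of all regions), FOXA (TGTTTAC, 4.95%), HNF4A (CAAAGTCCA, 0.802%), YY1 (AAGATGGC, 1.22%), PBX-HOX (TGATTNAT, 3.55%) and the retinoic acid element (a pair of AGNTCA separated by 5 bases, 0.0935%). The absence says only that these letters are not in these windows.

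Regulators and partners of HOX genes were described in the same way, and their counts are to be read against the 58.8%, 58.6% and 52% of all protein-coding genes that had a start peak in NTG, siINO80#1 and siINO80#2. Of 8 TALE cofactors, which bind DNA with HOX proteins, 5 had a start peak in NTG, 5 in siINO80#1 and 3 in siINO80#2. MEIS1 stood at percentiles 77.5, 83.8 and 90.5. Of 15 Polycomb genes, 10, 10 and 8 had a start peak, EZH2, the H3K27 methyltransferase, at percentiles 90.7, 91.4 and 88.2. Of 9 Trithorax-group and related genes, which maintain HOX activity, the counts were 8, 7 and 5. Of 11 ParaHox and related homeobox genes, they were 4, 2 and 2, and PDX1, a gene of the foregut and pancreas, had one in all 3 lists at percentiles 12.6, 21.5 and 55.9.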

How the data were processed

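ATAC-seq of HepG2 cells was analysed for 3 groups of 3 replicates, grouped by the sample titles. All replicates of a group name the same peak list, so replicates were pooled or called together; the caller's parameters are not given in the sources used here. The submitters' processing notes name Trim Galore 0.4.1, Bowtie2, SAMtools, MACS2 and deepTools 2.2.4, and the build hg19. In the lists deposited by the authors, fold enrichment is a ratio of summit reads to local background, with 1 added to both, p and q are −log10 values, and the score is a multiple of −log10 q.

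Peaks with several summits entered once, at their strongest summit. An overlap of 1 bp sufficed. Genes and starts were those of GENCODE 44 lifted to GRCh37. Reads at the summit were solved from fold enrichment and −log10 p (median 22 in NTG, 26 in siINO80#1 and 26 in siINO80#2). Shares have 95% Wilson and reads exact Poisson intervals, for counting error only, because PCR reads are not independent molecules. The scripts were tested on simulated data, on which 100% of read numbers, overlaps, start calls and classes were recovered. No test between groups was possible with 1 list per group. Values were given for every region found in all 3 lists, the strongest peaks of each cluster, each member with a start peak and the longest stretches without peaks, and the sequence of the strongest shared region of HOXD. A sequence window and a listed cofactor are not reported here. The further sequences were picked after their values were seen. The members and gene lists were chosen with earlier results of these data known. Alternatives were a −log10 q of at least 5, equal list sizes, merging within 500 bp, flanks of 10 kb or none, 2.5 kb to a start, every transcript's start, an overlap of 50% of the shorter peak and motif windows of 300 bp. The analysis was run in Python 3.11.15 with scipy 1.17.1, pandas 2.3.3 and numpy 2.4.6, sequence was read with pysam 0.24.0, overlaps were checked with bedtools 2.31.1, and plots were made with matplotlib 3.10.9.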

Additional observations from a re-analysis of the deposited data

Results flagged for a closer look

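Of 12 measures set side by side between the lists, 2 moved in opposite directions with the 2 siRNAs against INO80, and these differences were not tested, since no replicate values were given. The number of HOX genes with a peak at a start site was 4 in NTG. It was lower by 1 with siINO80#1 (a difference of -1) and higher by 1 with siINO80#2, and with any summit of a peak counted it was 5, 3 and 5. The opposite directions did not hold with stricter lists. At equal list size the counts were 1 in NTG, 2 in siINO80#1 and 5 in siINO80#2, and among peaks whose −log10 q reached 5 the counts were 0, 2 and 2. The share of the HOXA windows covered by peaks was 3.32% in NTG. It differed by 0.511 percentage points with siINO80#1, at 3.83%, and by -0.275 with siINO80#2, at 3.04%.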

How the results depend on the processing

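No paired analysis was possible because each group was represented by 1 peak list, and for the same reason no replicate could be left out. Of 123 values recomputed under alternatives, 94 stayed within 1.5 times the count or within the interval of the share, and 29 moved. HOXC had 0 regions under all 5 alternatives tried for it. With a −log10 q of at least 5, the HOX peaks numbered 8 in NTG, 8 in siINO80#1 and 7 in siINO80#2, genes with a peak in their window 9 in NTG and 7 in siINO80#2, genes with a start peak 0 in NTG and 2 in siINO80#2, and regions 5 in HOXA, 0 in HOXB and 4 in HOXD. The share of regions in all 3 lists was then 66.7%, and the matched shares were 87.5% for NTG in siINO80#1, 87.5% for siINO80#1 in siINO80#2 and 100% for siINO80#2 in siINO80#1. At equal list size NTG had 10 HOX peaks, 9 genes with a peak in their window and 1 with a start peak, HOXB had 0 regions, and 90% of NTG peaks were matched in siINO80#1 and 90% in siINO80#2. With the gene body alone, 8, 6 and 6 genes had a peak in NTG, siINO80#1 and siINO80#2, HOXD had 4 regions, and 100% of siINO80#2 peaks were matched in NTG. With 2.5 kb to a start, 9 genes had a start peak in NTG and 5 in siINO80#1. Of 3 alternatives added after seeing the data, a peak that covers a start gave 2 genes in NTG and 1 in siINO80#2, and any summit of a peak and canonical starts alone kept each count within 1.5 times. The cause of these moves was not tested, except that the stricter settings hold fewer peaks by construction. The matched shares and the share in all 3 lists were recomputed for HOX peaks and regions alone, not for all peaks and regions.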
